A study of Mus musculus with 24 samples.

Results

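The genes described here are the Gadd45 family of the mouse and a protein named for binding one of its members: Gadd45a, Gadd45b, Gadd45g and Gadd45gip1. They were chosen by symbol from a table of 21965 genes, and all 4 were among the 14246 genes with enough reads to be tested. The table holds RNA sequencing of gastrocnemius, a hindlimb calf muscle, in a control group and at days 1, 3, 5, 7 and 14 after denervation, the loss of the muscle's motor nerve supply. Each of the 6 groups has 4 libraries, and total expected counts ran from 16082846 to 20696900 a library. The labels used here name the tissue and the day, and give no strain, sex, age, way of denervation or kind of control (sham-operated, contralateral or untouched). They do not say whether replicates are different animals. A p-value here therefore refers to the scatter among 4 libraries, and that scatter could be technical.

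GADD45 proteins are small acidic stress sensors that have no enzyme activity of their own. They act by binding other proteins: the kinase MTK1 (Map3k4) at the head of the p38 and JNK pathways, PCNA and the CDK1-cyclin B complex in the cell cycle, and excision repair and deamination factors in the removal of DNA methylation. In skeletal muscle, Gadd45a is known as a gene induced by denervation, fasting and immobilization, and its forced expression in fibres is known to cause atrophy. Gadd45b and Gadd45g are known for induction by cytokines, TGF-beta and NF-kappaB signals and by muscle activity. Gadd45gip1, also called CRIF1, is not a homologue of these 3: it was found as a partner of GADD45 proteins, and works in the mitochondrial ribosome.

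The labels' extraction text speaks of dorsal root ganglion neurons, although the tissue is given as gastrocnemius. Muscle fibre markers summed to 51500 to 268000 CPM (read counts relative to library size, after TMM scaling) in the 24 libraries, and sensory neuron markers to 4.84 to 14.7 CPM, with Scn10a, a sodium channel of sensory neurons, at 0 in control, day 1, day 5 and day 14. The libraries of days 1 and 5 stood apart in another way. The summed level of 12 lymphocyte markers was 181 to 186 CPM at day 1 and 212 to 227 CPM at day 5, against 2.92 to 6.55 CPM in the other 4 groups. Markers of lymph node vessels, among them Glycam1, moved the same way, from 0 in all control libraries to 42.6 to 57.9 CPM at days 1 and 5. In bulk tissue, fewer cells of a type and less RNA per cell cannot be told apart.

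The 3 family genes lie on different chromosomes. In the GENCODE M21 annotation of GRCm38, Gadd45a (ENSMUSG00000036390) spans chr6:67035096-67037457 on the minus strand, Gadd45b (ENSMUSG00000015312) chr10:80930073-80932204 on the plus strand, and Gadd45g (ENSMUSG00000021453) chr13:51846678-51848468 on the plus strand. Gadd45gip1 (ENSMUSG00000033751) spans chr8:84831522-84835482 on the plus strand, with 1 annotated transcript of 2 exons. The promoters of the 3 family genes are shown because these genes moved in different directions. Each is 300 bases of RefSeq sequence (GRCm38.p6), 250 before and 50 after the annotated start, written 5′ to 3′ on the gene's own strand. The windows are chr6:67037358-67037657, chr10:80929841-80930140 and chr13:51846425-51846724, in the order shown.
Gadd45a: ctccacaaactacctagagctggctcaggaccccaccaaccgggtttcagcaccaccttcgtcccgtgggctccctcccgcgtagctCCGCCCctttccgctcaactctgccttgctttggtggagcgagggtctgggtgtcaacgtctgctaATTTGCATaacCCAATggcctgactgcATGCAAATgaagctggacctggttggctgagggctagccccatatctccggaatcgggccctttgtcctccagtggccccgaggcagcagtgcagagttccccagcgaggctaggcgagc
Gadd45b: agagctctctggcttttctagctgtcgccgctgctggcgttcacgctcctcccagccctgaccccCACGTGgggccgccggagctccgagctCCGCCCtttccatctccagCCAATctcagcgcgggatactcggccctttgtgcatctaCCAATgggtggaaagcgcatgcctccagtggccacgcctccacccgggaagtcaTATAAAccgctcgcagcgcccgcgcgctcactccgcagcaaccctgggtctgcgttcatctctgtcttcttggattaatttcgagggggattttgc
Gadd45g: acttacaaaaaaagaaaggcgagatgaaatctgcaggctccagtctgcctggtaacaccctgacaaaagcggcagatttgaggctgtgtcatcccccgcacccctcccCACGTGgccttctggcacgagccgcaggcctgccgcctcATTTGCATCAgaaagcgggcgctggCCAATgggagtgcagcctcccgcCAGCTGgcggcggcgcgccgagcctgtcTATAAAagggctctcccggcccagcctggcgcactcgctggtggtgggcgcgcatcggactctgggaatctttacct
Capitals mark matches, on either strand, to a list of 10 motifs that was chosen with these sequences known. All 3 windows held a CCAAT box (letters CCAAT), as did 37.4% of 32544 mouse promoter windows of the same length. Gadd45b and Gadd45g both held a TATA box (TATAAA), which 13.6% of all windows hold, and the E-box CACGTG, which 7.17% hold. Gadd45a held neither of these. The octamer ATTTGCAT, which binds POU-domain factors and was found in 1.75% of all windows, was present in Gadd45a on both strands, at positions -97 and -70 from the start, and in Gadd45g at position -103. In Gadd45g this octamer overlapped the core of an ATF4 response element (TGATGCAA, read on the opposite strand from position -101), which 0.867% of windows hold. A GC box (GGGCGG, 35.9% of windows) was present in Gadd45a and Gadd45b, and the E-box CAGCTG (16.4%) in Gadd45g. No match was found in the 3 windows for the cyclic AMP response element TGACGTCA, the AP-1 site TGANTCA or the FoxO site TGTTTAC, which 1.8%, 7.79% and 3.66% of windows hold. A match of letters is a description of the sequence and does not show binding.

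Each family gene followed its own course. Gadd45a was higher than control on all 5 days and had its highest level at day 5. Gadd45b was lower on all 5 days. Gadd45g was far lower at days 1, 5, 7 and 14. At day 3 it was 1.39-fold lower under TMM scaling, with no overlap with control. Changes were tested with edgeR's quasi-likelihood test, with Benjamini-Hochberg adjustment over the 14246 genes. In that test all 4 genes differed among the 6 groups, as did 96.7% of all genes tested. By the size of the F statistic, Gadd45a ranked 88, Gadd45b 947, Gadd45g 1075 and Gadd45gip1 8410 of 14246.

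Gadd45a, the p53- and ATF4-inducible member of the family, had 62.2, 71.2, 65.3 and 60.8 CPM in the 4 control libraries. It had 288, 288, 296 and 285 CPM at day 1, and 98.1, 104, 97.2 and 96.2 CPM at day 3. The gene was thus high 1 day after denervation and most of that increase was absent at day 3, with no overlap between any of these groups. At day 5 the libraries held 710, 696, 719 and 702 CPM. Values were 343, 356, 334 and 342 CPM at day 7, and 559, 568, 574 and 569 CPM at day 14. The 6 groups ordered as control, day 3, day 1, day 7, day 14 and day 5, and no neighbours in that order overlapped.

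Against control, Gadd45a rose 4.46-fold at day 1 (log2 2.16 ± 0.032 SE, adjusted p = 7.6e-44) and 1.52-fold at day 3 (log2 0.61 ± 0.035, adjusted p = 4.6e-20). The rise was 10.9-fold at day 5 (log2 3.44 ± 0.031, adjusted p = 1.3e-52), 5.3-fold at day 7 (adjusted p = 3.4e-46) and 8.74-fold at day 14 (adjusted p = 3.7e-51). By size among the genes tested, its rise at day 14 was 225th from the top and its rise at day 3 was 2516th. The steps between neighbouring times, which do not share the control libraries, all passed the test. Gadd45a fell 2.93-fold from day 1 to day 3, rose 7.15-fold from day 3 to day 5, fell 2.06-fold from day 5 to day 7 and rose 1.65-fold from day 7 to day 14. Beside these values, the lymphocyte markers summed on average to 4.08 CPM in control, 183 at day 1, 3.08 at day 3, 220 at day 5, 4.47 at day 7 and 5.48 at day 14, where Gadd45a averaged 64.9, 289, 98.8, 707, 344 and 567 CPM. Their part in the level of Gadd45a was not tested.

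**Figure D1:**
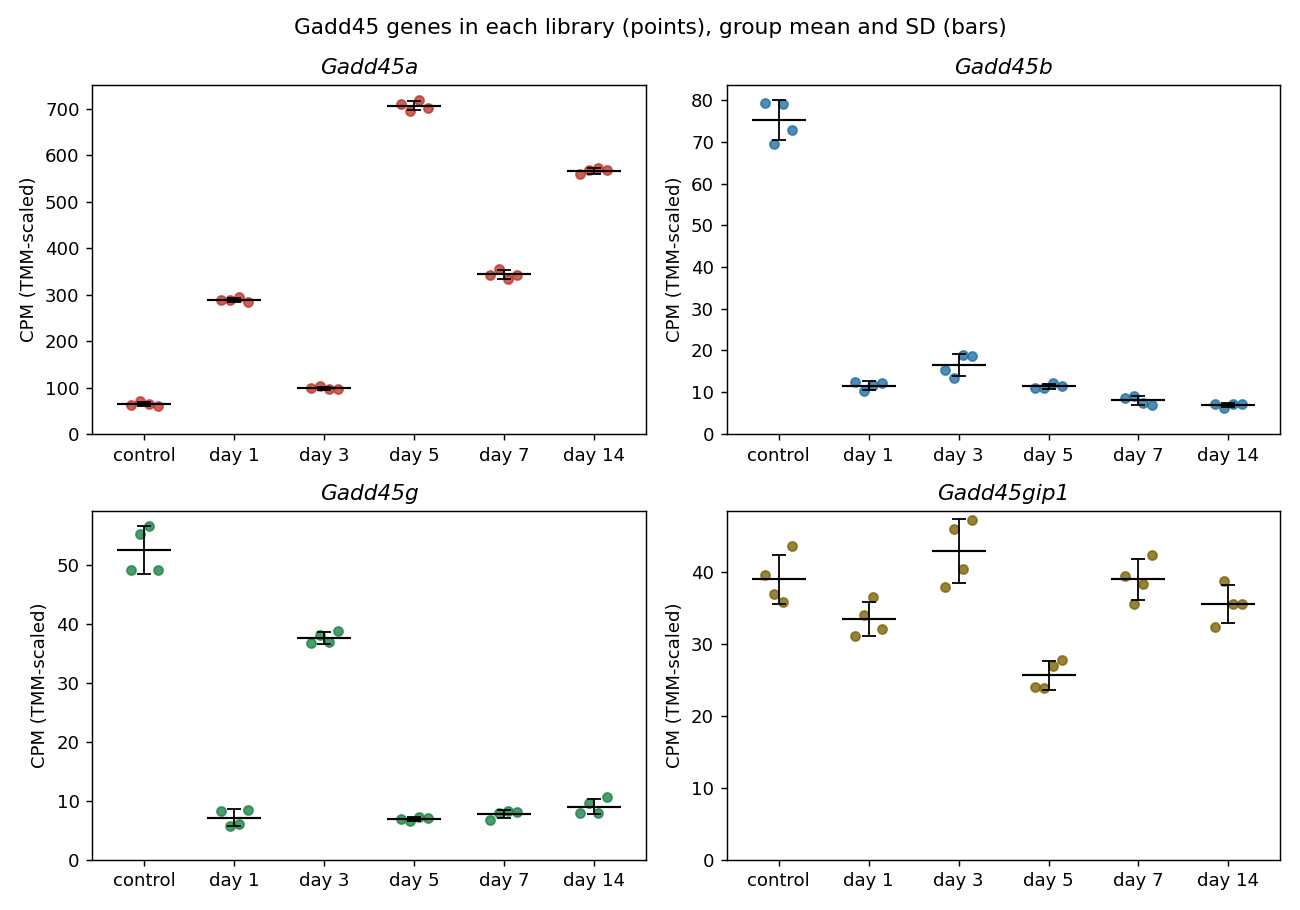
CPM (linear axis from 0) of the 4 genes in the 24 libraries, grouped by time, 1 panel a gene. Points are libraries, horizontal lines group means and bars SD (n = 4). Gadd45a is above its control range on every day, Gadd45b is below it on every day, and Gadd45g returns to 36.8 to 38.9 CPM at day 3.

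Gadd45b, the member best known for NF-kappaB and TGF-beta induction, had 79.2, 69.5, 79.0 and 72.9 CPM in control libraries. It had 12.4, 10.2, 11.7 and 12.3 CPM at day 1, and 15.2, 13.5, 18.8 and 18.7 CPM at day 3. All 8 of these early libraries lay far below the lowest control library. At day 5 the values were 10.9, 11.1, 12.1 and 11.5 CPM. They were 8.57, 9.14, 7.39 and 7.04 CPM at day 7, and 7.26, 6.32, 7.19 and 7.25 CPM at day 14. Day 14 overlapped day 7, and day 5 overlapped day 1, while day 3 lay above both and control above all. Gadd45b fell 6.44-fold at day 1 (log2 -2.69 ± 0.082, adjusted p = 3.5e-31, edgeR). It was 4.56-fold lower than control at day 3, 6.59-fold at day 5, 9.32-fold at day 7 and 10.7-fold at day 14 (log2 -3.42 ± 0.088, adjusted p = 2.6e-34). Its small rise from day 1 to day 3 (1.41-fold, adjusted p = 4.7e-06) and the falls to day 5 (1.45-fold, adjusted p = 1.6e-06) and day 7 (1.41-fold, adjusted p = 2.3e-05) passed the test. The step from day 7 to day 14 did not (log2 -0.20, 95% interval -0.41 to 0.01, adjusted p = 0.11).

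Gadd45g, a cytokine-inducible member, had 49.1, 55.3, 56.7 and 49.1 CPM in control libraries and 8.31, 5.76, 6.02 and 8.41 CPM at day 1. At day 3 the libraries held 36.8, 38.1, 36.9 and 38.9 CPM. Day 3 thus lay between control and day 1, overlapping neither, and nearer to control. Libraries of day 5 held 6.86, 6.57, 7.23 and 6.99 CPM. Those of day 7 held 6.74, 7.91, 8.31 and 8.07 CPM, and those of day 14 held 7.9, 9.62, 7.96 and 10.6 CPM. In the order of means, day 5, day 1, day 7 and day 14 each overlapped the next. Gadd45g fell 7.34-fold at day 1 (log2 -2.88 ± 0.092, adjusted p = 2.1e-30, edgeR), the 72nd largest fall of the genes tested. It was 7.6-fold lower at day 5, 6.78-fold at day 7 and 5.83-fold at day 14 (adjusted p = 5.8e-29). At day 3 it was 1.39-fold lower (log2 -0.48 ± 0.076, adjusted p = 3.6e-07), a call that was lost when libraries were scaled by their totals alone (log2 -0.10, adjusted p = 0.22). The rise from day 1 to day 3 was 5.27-fold (adjusted p = 5.5e-27) and the fall from day 3 to day 5 was 5.45-fold (adjusted p = 3.1e-27). The later steps did not pass: log2 0.17 (95% interval -0.05 to 0.38) from day 5 to day 7, and log2 0.22 (0.01 to 0.42, adjusted p = 0.08) from day 7 to day 14.

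Gadd45gip1, the mitochondrial ribosome gene, had smaller changes against control under TMM scaling. Its control libraries held 39.5, 36.9, 35.8 and 43.5 CPM and day 5 libraries 23.9, 23.8, 26.9 and 27.7 CPM. The other days ran from 31.1 to 36.5 CPM at day 1, 37.8 to 47.2 at day 3, 35.5 to 42.3 at day 7 and 32.3 to 38.7 at day 14. Day 5 was the one group that overlapped no other. Under edgeR with TMM scaling, Gadd45gip1 was 1.52-fold lower at day 5 (log2 -0.61 ± 0.074, adjusted p = 8e-10) and 1.17-fold lower at day 1 (log2 -0.22 ± 0.072, adjusted p = 0.005), whereas with library totals alone the values were log2 0.04 (adjusted p = 0.62) and 0.36 (adjusted p = 1.7e-05). Days 3, 7 and 14 did not pass the test: log2 0.14 (95% interval 0.00 to 0.28), 0.00 (-0.14 to 0.14) and -0.13 (-0.27 to 0.01). With library totals alone all 3 passed as rises, at log2 0.52 (adjusted p = 1.4e-08), 0.76 (adjusted p = 1.4e-13) and 0.59 (adjusted p = 3.9e-10). Between neighbouring times it rose 1.29-fold to day 3, fell 1.68-fold to day 5 and rose 1.52-fold to day 7, and these 3 steps kept their direction with library totals.

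The deposited counts of Gadd45gip1 were not whole in 24 of 24 libraries, whereas those of Gadd45a, Gadd45b and Gadd45g were whole in all. Gadd45a is overlapped in part on the opposite strand by the transcript E230016M11Rik, whose span starts at chr6:67036599. The identifier of that transcript is not among the deposited genes. The use of strand in the counting is not given in the sources used here. Within the overlap, reads of Gadd45a and of that transcript therefore cannot be told apart.

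Of the 4 genes, all passed the test at day 1 and at day 5 (1 higher and 3 lower on each day), where 74.3% of all genes passed. At days 3, 7 and 14, 3 of 4 passed, against 70.2%, 76.9% and 74.4% of all genes. Between neighbouring times, 4 of 4 passed from day 1 to day 3 (74.1% of all genes) and from day 3 to day 5 (77.3%), 3 of 4 from day 5 to day 7 (68.2%) and 1 of 4 from day 7 to day 14 (51.6%). These counts are near the background, since most genes of the table changed. By direction, 38.1%, 34.5%, 38.5%, 40.2% and 39.2% of all genes were higher than control at days 1, 3, 5, 7 and 14, where Gadd45a was the 1 gene of the 4 that rose. The lower shares were 36.2%, 35.7%, 35.8%, 36.7% and 35.3%, where 3, 2, 3, 2 and 2 of the 4 fell. Between neighbouring times, 36.1%, 38.2%, 33.8% and 26% of all genes rose and 38%, 39.2%, 34.4% and 25.6% fell, in time order. Of the 4 genes, 3, 1, 1 and 1 rose and 1, 3, 2 and 0 fell. With library totals alone, the median of all genes shifted by log2 0.61, 0.34, 0.67, 0.81 and 0.78 at days 1, 3, 5, 7 and 14 against control, and 75.1% to 86.4% of calls were then higher. With totals, the rises of Gadd45a (6.67-fold, 1.98-fold, 17-fold, 9.01-fold and 14.4-fold) and the falls of Gadd45b (3.51-fold to 6.53-fold) kept their direction on every day. These fold values include that shift.

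**Figure D2:**
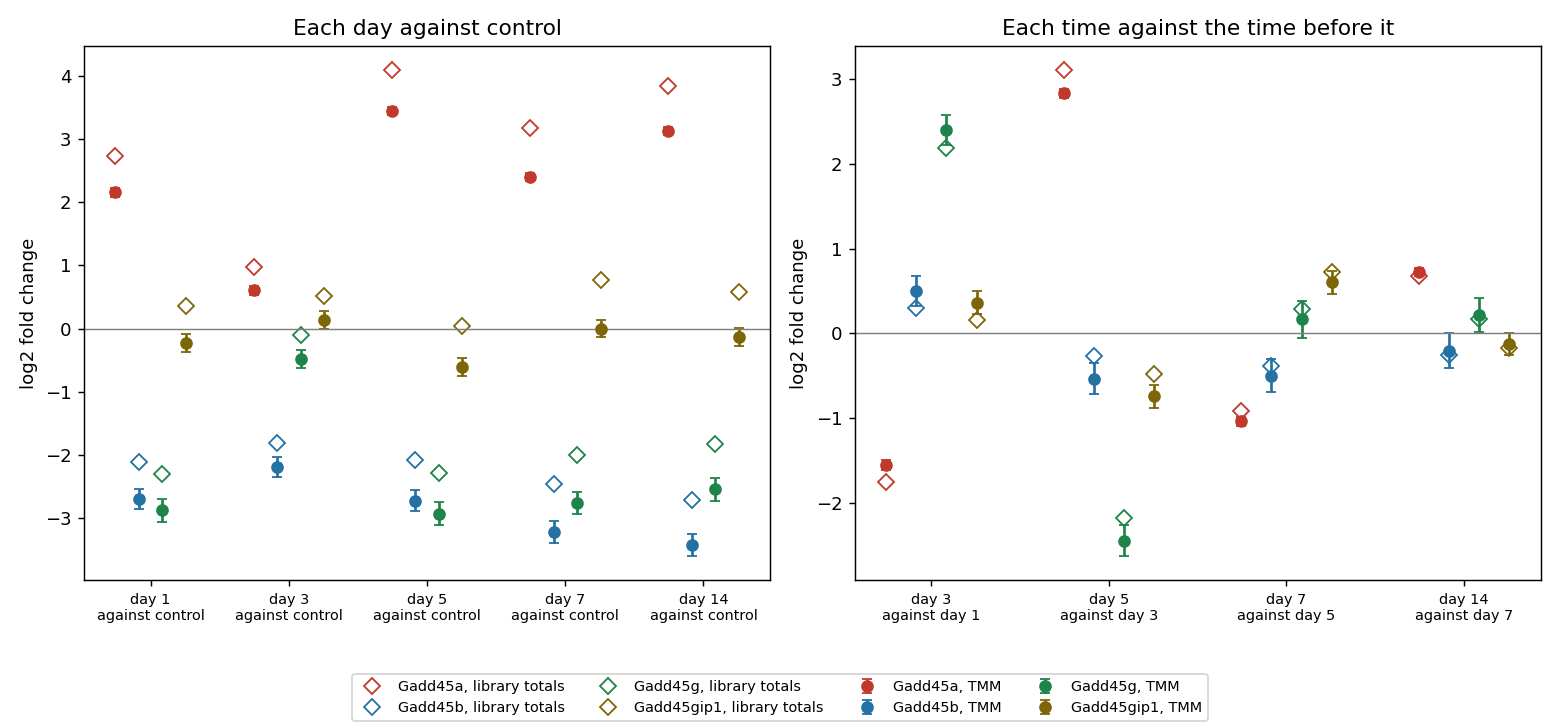
Log2 fold change of each gene, each day against control (left) and each time against the one before (right). Filled points are edgeR estimates with TMM scaling and bars their 95% interval, and open diamonds are the estimates with library totals alone. Open diamonds lie above filled points in every comparison with control, and the sign differs between the scalings for Gadd45gip1 alone.

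Ratios between the family genes within a library do not depend on how libraries are scaled. They were taken from the deposited TPM values, which are levels relative to transcript length. In control muscle the 3 genes were close to equal: Gadd45a averaged 63.6 TPM, Gadd45b 70.0 TPM and Gadd45g 58.7 TPM, and Gadd45a made up 33.0% ± 1.8 (SD, n = 4) of their sum. That share was 93.8% ± 0.82 at day 1, 62.6% ± 1.9 at day 3, 97.4% ± 0.089 at day 5, 95.4% ± 0.17 at day 7 and 97.1% ± 0.24 at day 14. The pool of family transcripts thus passed from an even mixture to nearly all Gadd45a, with day 3 between, where Gadd45g still made up 27.3% and Gadd45b 10.1%. The summed level of the 3 genes was 192.3 TPM in control, 466.3 at day 1, 206.6 at day 3, 1200 at day 5, 635.1 at day 7 and 974.9 at day 14.

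The log2 ratio of Gadd45a to Gadd45b was -0.14 in control, and 4.71, 2.65, 6.02, 5.50 and 6.41 at days 1, 3, 5, 7 and 14. The ratio of Gadd45a to Gadd45g was 0.12 in control, and 5.17, 1.2, 6.49, 5.28 and 5.80 on those days. All 10 of these differences from control had p = 0.029 in a two-sided exact permutation test, the smallest value that 4 against 4 libraries can give (0.036 after Benjamini-Hochberg adjustment over 15 ratio tests). The log2 ratio of Gadd45b to Gadd45g was 0.26 in control and -1.45 at day 3 (exact permutation p = 0.029, adjusted 0.036), against 0.47 at day 1 (exact permutation p = 0.17) and 0.46 at day 5 (exact permutation p = 0.057). It was -0.22 at day 7 (exact permutation p = 0.057, adjusted 0.061) and -0.61 at day 14 (exact permutation p = 0.029, adjusted 0.036), so the balance between these genes differed from control at days 3 and 14.

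**Figure D3:**
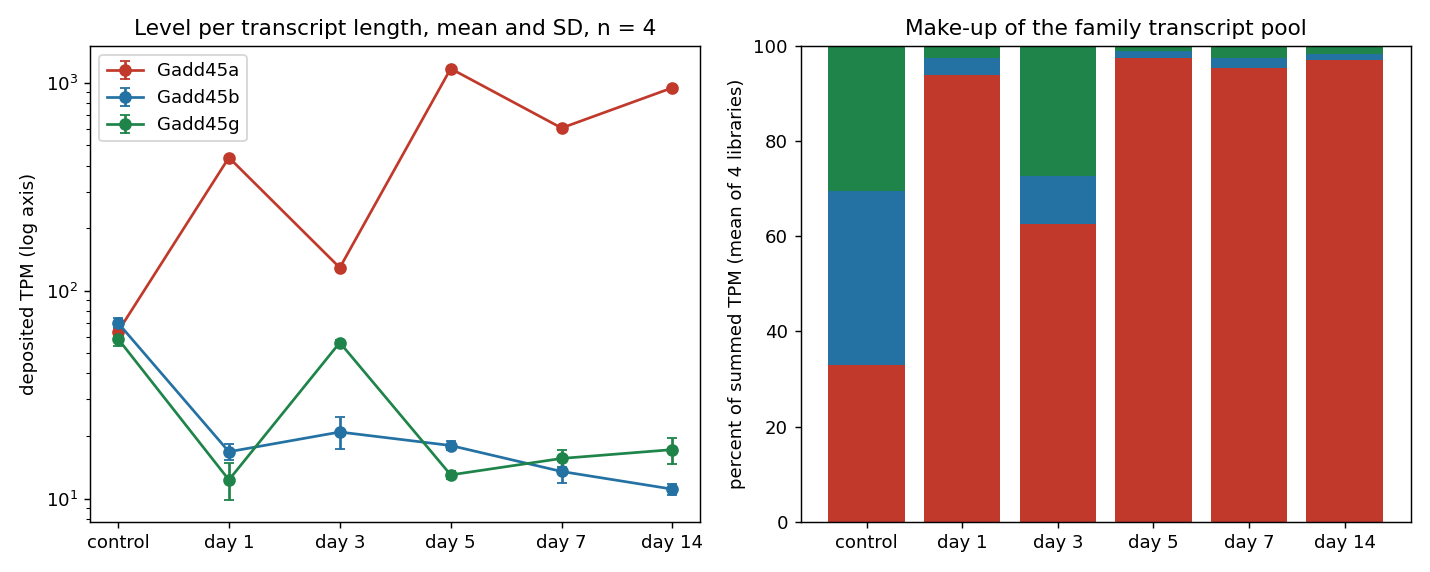
Left, deposited TPM of the 3 family genes (log axis), mean and SD of 4 libraries in each group. Right, the mean percent of their summed TPM that each gene makes up. Gadd45a goes from 33.0% in control to 93.8% at day 1, 62.6% at day 3 and at least 95.4% from day 5 on.

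Genes of the pathways in which GADD45 proteins act are given next, as counts that passed edgeR's test against the same 4 control libraries. For all genes tested, the median log2 change was 0.03, -0.03, 0.03, 0.05 and 0.06 at days 1, 3, 5, 7 and 14. With library totals alone that median was 0.61, 0.34, 0.67, 0.81 and 0.78 on these days. The kinases that GADD45 proteins engage are MTK1 and the p38 and JNK cascades below it. Of 10 kinase genes tested, 2 rose and 7 fell at day 1, and 8 rose and 1 fell at day 3 (median log2 -0.37 and 0.30). At days 5, 7 and 14, 1, 1 and 0 rose and 5, 8 and 7 fell. With library totals alone the medians of this list were log2 0.22, 0.68, 0.37, 0.28 and 0.27 on the 5 days. They lay below the median of all genes at days 1, 5, 7 and 14 and above it at day 3, as under TMM scaling. Map2k3, an activator of p38, averaged 358 CPM in control, 192 at day 1, 420 at day 3 and 116 at day 5. Map2k7, an activator of JNK, went from 118 CPM in control to 66.9, 140 and 71.6 CPM on the same days, and Map2k6 fell on each of the 5 days, though with library totals alone it was log2 0.17 at day 14. Mapk12, a p38 isoform enriched in muscle, was 170 CPM in control, 176 at day 3 (adjusted p = 0.13, edgeR) and 62.1 at day 7. Thus Map2k3 and Map2k7 stood low at day 1 and day 5, when Gadd45a stood high, and above control at day 3.

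All 5 cell-cycle partner genes rose at days 1, 5, 7 and 14 under both scalings (medians log2 1.80, 0.83, 1.60 and 0.75). At day 3, Pcna and Cdkn1a rose and Cdk1, Ccnb1 and Ccnb2 fell. Cdkn1a encodes p21, a cyclin-dependent kinase inhibitor that binds GADD45A. It averaged 103 CPM in control, 143 at day 1, 273 at day 3, 408 at day 5, 606 at day 7 and 372 at day 14, so it lacked the day 3 minimum of Gadd45a. Ccnb1, the cyclin B1 gene, was low throughout, at 0.417 CPM in control and 5.74 CPM at day 1.

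Among 11 demethylation and repair factors, between 4 and 5 rose and between 4 and 6 fell on each day. Their medians ran from log2 -0.25 to -0.01, and with library totals alone from 0.12 to 0.76. Under both scalings the medians lay below that of all genes tested on every day. Apobec2, a muscle-enriched relative of the cytidine deaminases, fell from 589 CPM in control to 130 at day 1 and 59.7 at day 7. Of the TET dioxygenases, Tet3 fell from 66.1 to between 31.8 and 43.9 CPM on all 5 days under TMM scaling, while with library totals alone its day 5 value was log2 0.02. Tet1 was 2.25 CPM in control, 0.787 at day 3 and 4.51 at day 14. Mbd4, a thymine glycosylase, rose at days 1, 5, 7 and 14, from 1.18 to between 2.81 and 3.29 CPM.

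Transcriptional regulators linked to Gadd45 genes did not move as a group: of 18 tested, 8, 9, 10, 9 and 6 rose and 9, 6, 7, 9 and 10 fell at days 1, 3, 5, 7 and 14, with medians of log2 -0.05, 0.26, 0.33, 0.07 and -0.27. Of all genes tested, 34.5% to 40.2% rose and 35.3% to 36.7% fell on these days. Atf4 and Hdac4 are the regulators tied to Gadd45a in atrophying muscle, and they are named here for that role, with their values seen. Atf4 mRNA averaged 399 CPM in control, 160 at day 1, 863 at day 3, 170 at day 5, 121 at day 7 and 135 at day 14. It was therefore highest at day 3, where Gadd45a was above control but rose least. It was below control at days 1, 5, 7 and 14, where Gadd45a rose more. ATF4 is controlled largely at translation, which these data do not measure. Hdac4, a class II histone deacetylase, rose on all 5 days, from 49.4 CPM to between 110 and 160 CPM. Dach2, a repressor of Myog, fell from 1.42 CPM to between 0.0662 and 0.554 CPM, and Myog, the myogenin gene, rose from 19.8 CPM to between 102 and 221 CPM. Egr1 fell from 134 CPM to between 15 and 46.1 CPM. Brca1 was 0.392 CPM in control and 1.99 CPM at day 1.

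Gadd45a shares its GADD name with Ddit3 (GADD153) and Ppp1r15a (GADD34), genes found with it by induction after growth arrest and DNA damage. Of 10 genes of this list and the integrated stress response, 3 rose and 7 fell at day 1, and 8 rose and 2 fell at day 3 (medians log2 -0.53 and 0.66). With library totals alone the day 1 split was 4 rising and 3 falling. Ppp1r15a, a phosphatase subunit that reverses eIF2alpha phosphorylation, was chosen after its values were seen. It averaged 237 CPM in control, 51.9 at day 1, 414 at day 3, 102 at day 5, 50.8 at day 7 and 56.6 at day 14, a course opposite in direction to that of Gadd45a on days 1, 5, 7 and 14. Atf3, a stress-induced transcription factor, rose on all 5 days and had its highest mean at day 3, at 98.3 CPM against 6.77 in control. Chac1, a glutathione-degrading enzyme and ATF4 target, fell from 131 CPM in control to 1.82 CPM at day 14. Ddit4, an inhibitor of mTORC1, was 52.6 CPM in control, 63.4 at day 5 and 8.31 at day 7. Fgf21, a stress hormone of muscle, stayed below 1 CPM in group mean throughout.

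Among 14 p53 target genes, 5 rose and 8 fell at day 1, and 9 rose and 3 fell at day 5 (medians log2 -0.17 and 0.57), while with library totals alone 9 rose and 2 fell at day 1. Eda2r, a receptor of the TNF receptor superfamily, rose from 79.3 CPM in control to 195 at day 1, 99.9 at day 3, 270 at day 5, 351 at day 7 and 383 at day 14, and like Gadd45a had its smallest rise at day 3. Sesn1, a regulator of mTORC1, fell from 218 CPM to between 33 and 66.3 CPM. Pmaip1, which encodes the cell death factor NOXA, rose on each day and reached 3.16 CPM at day 5.

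Of 12 denervation genes of the muscle fibre, 12 rose at days 1, 5, 7 and 14, and 8 rose and 3 fell at day 3, when their median was log2 1.07 against 3.08 at day 1 and 2.79 at day 5. With library totals alone, 10 rose and 1 fell at day 3. Chrng, the fetal acetylcholine receptor subunit, averaged 0.374 CPM in control, 44.4 at day 1, 0.563 at day 3 (adjusted p = 0.2, edgeR), 13.8 at day 5 and 291 at day 14. Chrnd, another receptor subunit, was 4.83, 84.1, 6.3, 56.9 and 481 CPM in the same groups, and embryonic myosin Myh3 was 3.46, 87.5, 2.19, 112 and 440 CPM. Chrng, Chrnd and Myh3 had their highest means at day 14, whereas Gadd45a had its highest at day 5.

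Of 8 ubiquitin ligases of atrophy tested, 0 rose and 8 fell at day 1, and 1 rose and 6 fell at day 5 (medians log2 -0.88 and -0.33), although with library totals alone 7 rose and 1 fell at day 5. At day 7, 2 rose and 6 fell. Trim63 (MuRF1) averaged 3030 CPM in control, 819 at day 1, 2380 at day 5 and 121 at day 14, and Fbxo32 (atrogin-1) 2210, 576, 1570 and 110 CPM. Fbxo31 fell from 318 to 50.2 CPM at day 7, and Cblb from 48.5 to 17.9 CPM.

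Of 10 immediate early genes, 8 fell and 1 rose at day 1, and 6 fell and 4 rose at day 3 (medians log2 -1.72 and -1.31). At days 5, 7 and 14, 8 fell and 2 rose on each day. Fos fell from 111 CPM in control to between 7.86 and 12 CPM on the 5 days, and Zfp36, which encodes an mRNA decay factor, from 107 to between 20.1 and 43.2 CPM. Fos, Egr1 and Zfp36 stayed low at day 3, as Gadd45b did. Nr4a1, an orphan nuclear receptor, was instead 88.5 CPM in control, 23.9 at day 1, 108 at day 3 and 31.1 at day 5, and so had a day 3 return as Gadd45g did.

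**Figure D4:**
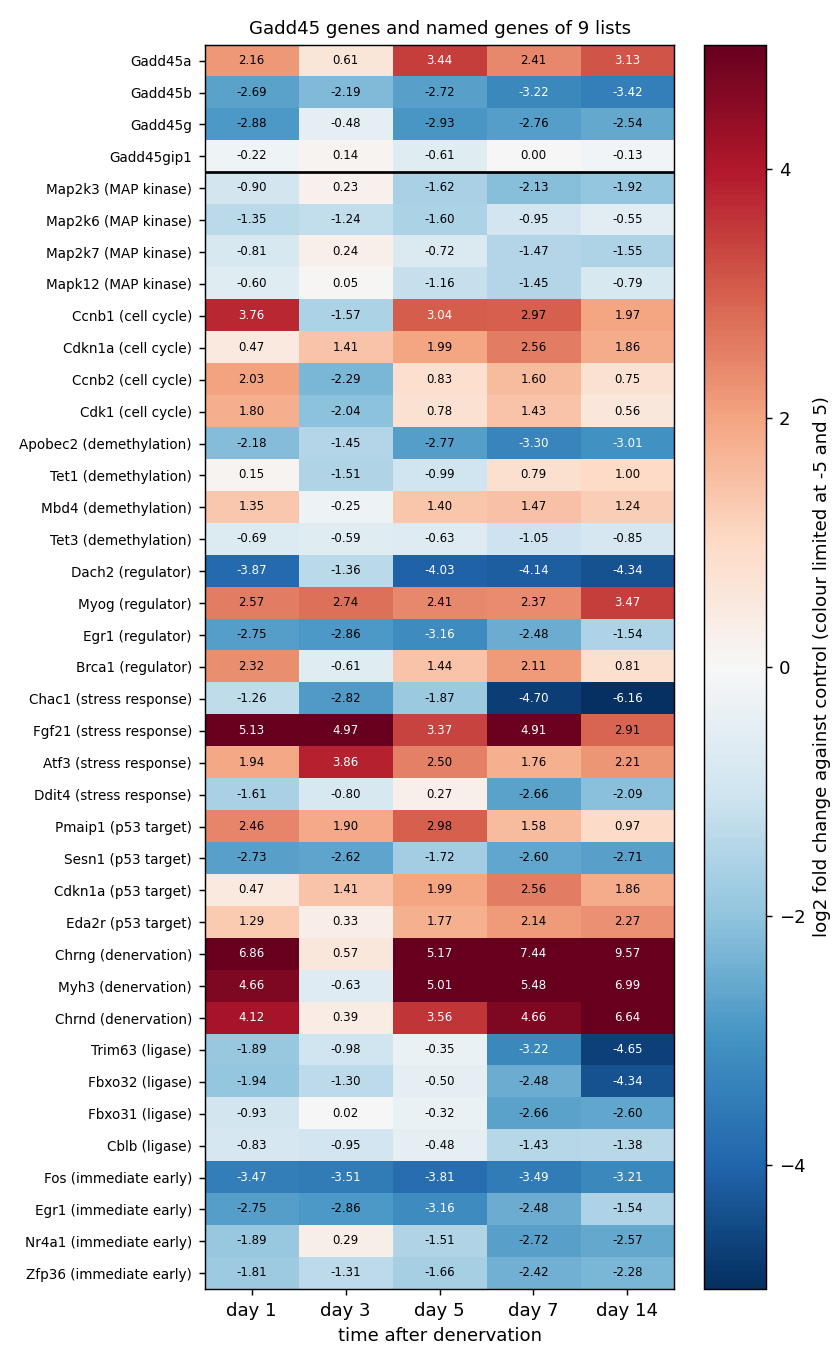
Log2 fold change against control (edgeR, TMM) at each day for the 4 genes, above the line, and for up to 4 genes of each of 9 lists, below it, chosen by the size of their change. Red is higher and blue lower than control, with the value printed in each cell and colour limited at -5 and 5. The day 3 column is the palest for Gadd45a, Gadd45b, Gadd45g and Chrng, among others.

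For Gadd45gip1, the fitting comparison is with the other proteins of the mitochondrial ribosome. Of 78 such genes, 8 rose and 49 fell at day 1, and 6 rose and 61 fell at day 5, with medians of log2 -0.22 and -0.40. With library totals alone the split turned, to 62 rising and 6 falling at day 1 and 55 rising and 10 falling at day 5. Of all 14246 genes, 10050 then rose and 1899 fell at day 1, and 10291 rose and 1680 fell at day 5. Between neighbouring times 57 of 78 rose to day 3, 65 fell to day 5 and 53 rose to day 7, the same directions in which Gadd45gip1 moved. Of all genes, 36.1% rose, 39.2% fell and 33.8% rose at these steps. With library totals alone, 32 of the 78 rose and 15 fell to day 3. The later steps were then 14 rising and 46 falling to day 5, and 66 rising and 3 falling to day 7. Of all 14246 genes, 3530 rose and 7260 fell to day 3 with that scaling. To day 5, 7353 rose and 3622 fell, and to day 7, 6140 rose and 3790 fell. The largest changes against control were those of Mrpl9, which fell from 93.8 to 39.4 CPM at day 7, and Mrps36, which fell from 47.9 to 20.1 CPM at day 5.

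Genes with the course nearest to each of the 4 were found among 11751 genes, by the root mean square difference of mean log2 CPM over the 6 groups after centring. Those nearest to Gadd45a were Acsl6, an acyl-CoA synthetase (0.34 log2 units), Fez1, a kinesin adaptor (0.35), Ccdc136 (0.40), Prune2 (0.40) and Btc, the growth factor betacellulin (0.41). Acsl6 averaged 16.1 CPM in control, 65.5 at day 1, 26.1 at day 3, 96.0 at day 5, 84.4 at day 7 and 97.8 at day 14, and so shared the weak day 3. Nearest to Gadd45b were Ccrl2, a chemerin-binding receptor (0.26), Fn3k (0.30), Kcnj12, an inward rectifier potassium channel (0.30), Apobec2 (0.31) and Cldn5, an endothelial claudin (0.32). Cldn5 is 1 of 7 endothelial markers, all of which fell on every day under TMM scaling and 4 to 7 of which fell with library totals alone, and their summed level went from 1830 to 1910 CPM in control to 727 to 740 CPM at day 1 and 613 to 636 CPM at day 7. The part of this in the fall of Gadd45b was not tested.

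The gene nearest to Gadd45g was Idh2, the mitochondrial NADP-dependent isocitrate dehydrogenase, at 0.10 log2 units. Idh2 averaged 516 CPM in control, 56.2 at day 1, 340 at day 3, 56.8 at day 5, 69.7 at day 7 and 81.0 at day 14. Next came Ldhb, a lactate dehydrogenase subunit of oxidative fibres (0.26), Fndc5, the irisin precursor (0.27), Lynx1 (0.29) and Car14, a carbonic anhydrase (0.31). All 5 were high in control, low at day 1, partly back at day 3 and low again from day 5. Nearest to Gadd45gip1 were Faap100 (0.036), Pcdhgb4 (0.046), Scnm1 (0.048), Yif1a (0.05) and Mrpl46, a mitochondrial ribosomal protein (0.061). The choice of measure changed the genes named: Pearson correlation put 0, 0, 1 and 4 of these 5 genes among its own first 5 for Gadd45a, Gadd45b, Gadd45g and Gadd45gip1.

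**Figure D5:**
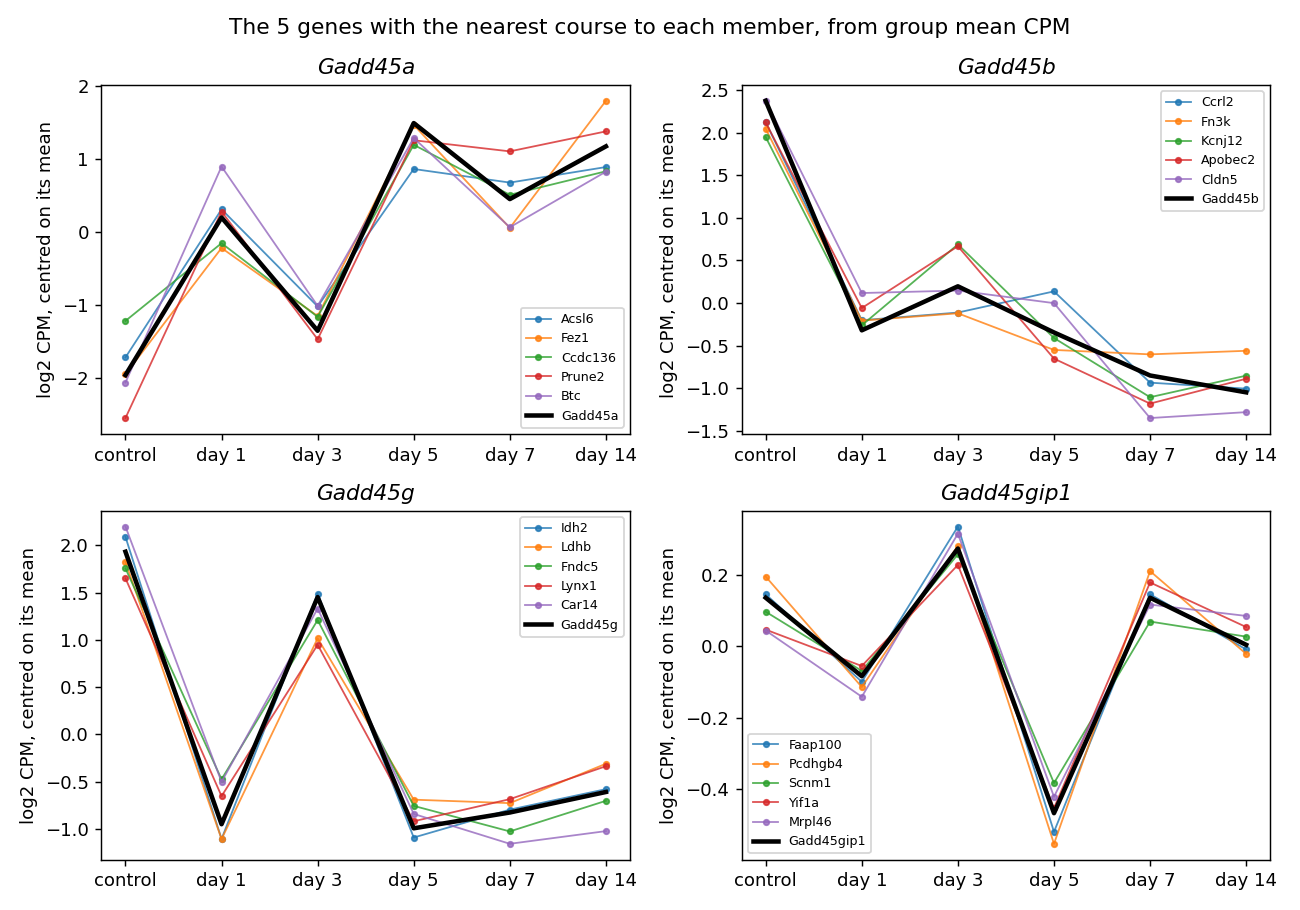
Mean CPM of each group on a log2 scale, centred on the mean of the 6 groups, for each of the 4 genes (thick black line) and the 5 genes nearest to it (thin lines). The line of Idh2 runs along that of Gadd45g, at 0.10 log2 units, and the lines around Gadd45a all dip at day 3.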

How the data were processed

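RNA sequencing of mouse gastrocnemius was deposited as 1 table of estimated (expected) counts and TPM values, with 24 columns of each. Per the labels' protocols, poly(A) RNA was enriched with oligo(dT) beads and libraries were made with an NEBNext Ultra kit and sequenced on an Illumina instrument. The aligner, the counting program and the genome build were not given in the sources used here. The deposited expected counts (7.01% not whole) were rounded to whole numbers. The TPM values are those the authors deposited and were used for ratios between genes and for levels per transcript length, with no further scaling.

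Groups came from the sample titles. Of 21965 genes, 3657 had no count, and 14246 passed filterByExpr. Counts of all 24 libraries were fitted together in edgeR 4.0.16 (R 4.3.3) with TMM scaling and a quasi-likelihood test, for 5 contrasts with control, 4 between neighbouring times and 1 over all groups, with Benjamini-Hochberg adjustment and a threshold of 0.05. SE is the log2 fold change divided by the square root of F, and 95% intervals are 1.96 SE either side. CPM values use the TMM-scaled library sizes, and a prior count of 2 was used for log2 CPM. The common biological coefficient of variation was 0.0389. Libraries of a group differed by more than sampling noise (chi-square per gene 2.04 to 3.86 over pairs). The fit was tested on simulated data. DESeq2 1.42.0, other scalings and filters, a replicate block, smaller sets of libraries and each library left out were tried as alternatives.

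From each of 9 pathway lists, up to 4 genes were named by the size of their largest passing change against control at any day, and 2 mitochondrial ribosomal genes by the same rule. For each of the 4 genes the 5 nearest courses were named, from genes whose mean log2 CPM was 1 or more. Atf4, Hdac4, Ppp1r15a, Map3k4, Pcna and Ddit3 fall outside that rule, and some results that the rule covers are not reported here. The genes, lists and motifs were chosen with earlier results of these data known. Annotation was GENCODE M21, which held 21854 of the 21965 gene identifiers, and promoters were RefSeq's (GRCm38.p6), matched by symbol for Gadd45a, Gadd45b and Gadd45g. No promoter of Gadd45gip1 was used here.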

Additional observations from a re-analysis of the deposited data

Results flagged for a closer look

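One of 24 gene and group pairs held a library set apart from the other 3 by Dixon's criterion: the lowest day 14 library of Gadd45b, at 6.32 CPM. Chance gives about 1 such case in 20 groups. The change against control differed between neighbouring times in 12 cases, by edgeR's test of the difference itself. These are the steps between neighbouring times given above, which 74.1%, 77.3%, 68.2% and 51.6% of all genes passed, in time order. From day 1 to day 3 the log2 change of Gadd45a differed by -1.55, of Gadd45b by 0.50, of Gadd45g by 2.40 and of Gadd45gip1 by 0.36. From day 3 to day 5 the differences were 2.84 for Gadd45a, -0.53 for Gadd45b, -2.45 for Gadd45g and -0.74 for Gadd45gip1. From day 5 to day 7 they were -1.04 for Gadd45a, -0.50 for Gadd45b and 0.60 for Gadd45gip1, and from day 7 to day 14 the difference was 0.72 for Gadd45a. The values of all 4 genes at day 3 thus differ from those of both days beside it.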

How the results depend on the processing

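Gadd45a kept its direction and its side of the threshold in all 139 alternative fits, 78 against control and 61 between neighbouring times. Gadd45b did so in 78 of 78 and 60 of 61, and Gadd45g in 77 of 78 and 57 of 61. Gadd45gip1 did so in 57 of 78 and 57 of 61. With library totals alone, Gadd45gip1 against control was log2 0.36, 0.52, 0.040, 0.76 and 0.59 at days 1, 3, 5, 7 and 14. With the same scaling Gadd45g at day 3 was -0.10, and the steps were 0.29 for Gadd45g from day 5 to day 7, -0.25 for Gadd45b and -0.18 for Gadd45gip1 from day 7 to day 14. Without a filter, Gadd45gip1 was 0.16 at day 3 and 0.016 at day 7. With only the 2 groups compared it was 0.15 at day 3, -0.15 at day 14 and -0.13 from day 7 to day 14. Without the day 1 and day 5 libraries it was 0.16 at day 3 and 0.031 at day 7, and the step of Gadd45g from day 7 to day 14 was 0.23. The cause was not tested.

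Leaving out 1 library at a time gave Gadd45gip1 log2 -0.27 to -0.16 at day 1 (adjusted p = 0.052 without control replicate 4, edgeR), 0.10 to 0.20 at day 3, -0.043 to 0.058 at day 7, -0.17 to -0.069 at day 14 and -0.17 to -0.085 from day 7 to day 14. At day 7, the values above 0 were 0.0066 without control replicate 1, 0.058 without control replicate 4, 0.042 without day 7 replicate 2 and 0.0060 without day 7 replicate 3. For Gadd45g from day 7 to day 14 the range was 0.135 to 0.27, and the step passed without day 14 replicate 1 or 3. As ratios of mean deposited TPM, Gadd45gip1 was log2 0.40, 0.15, 0.85 and 0.64 at days 1, 5, 7 and 14. Of the 5 nearest genes, Pearson correlation shared 0 for Gadd45a, 0 for Gadd45b and 1 for Gadd45g.

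Replicate numbers did not pair the libraries (60 same-numbered pairs, r -0.08 to 0.08, and 8 of 24 libraries correlated best with their own number). The fit with a replicate block changed no call of the 4 genes, and Gadd45a at day 1 was log2 2.16 in it. Counts of genes called stayed within 1.5 times in all 139 fits. Depth limits the low genes: group means under 1 CPM rest on few reads, and arms of 4 libraries cannot reach an exact permutation p below 0.029.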

Other observations

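Markers of other cell types of the muscle also differed between the groups in which the Gadd45 genes were measured. Of 11 macrophage markers, 11 rose at day 1, and their sum went from 666 to 676 CPM in control to 1640 to 1670 CPM at day 1, 1140 to 1180 at day 3, 1860 to 1900 at day 5, 1640 to 1660 at day 7 and 1190 to 1230 at day 14. Like Gadd45a, this sum was lowest in control, next lowest at day 3 and highest at day 5. The order of the other groups differed. The sum averaged 1210 CPM at day 14, below its 1660 at day 1 and 1650 at day 7, whereas Gadd45a averaged 567, 289 and 344 CPM there. Neutrophil markers summed to 90.4 to 103 CPM at day 3, their highest group, against 1.97 to 2.75 CPM in control. Adipocyte markers were highest at day 1 (958 to 991 CPM, against 87.1 to 94 in control), and erythroid markers were high at day 1 (2860 to 2970 CPM) and day 14 (2150 to 2200), against 776 to 807 CPM in control and 187 to 273 CPM on the other days. Schwann cell markers summed to 317 to 339 CPM in control and 66.5 to 70.3 CPM at day 14. Satellite cell markers summed to 108 to 122 CPM at day 5 and 27 to 61.3 CPM in the other groups, and markers of fibro-adipogenic progenitors to 1830 to 1850 CPM at day 3 and 4560 to 4610 CPM at day 14. These sums did not stand for all their members. Of 5 satellite cell markers, 2 rose and 3 fell at day 5 under TMM scaling (median log2 -0.46). Of 6 fibro-adipogenic markers, 1 rose and 5 fell at day 3, and 3 rose and 3 fell at day 14. Of 6 Schwann cell markers, 1 rose and 3 fell at day 14 under TMM scaling. With library totals alone, 3 of these 6 rose and 2 fell. All 10 muscle fibre markers fell on each of the 5 days under TMM scaling, whereas with library totals alone 1 of them rose at day 14. The part of these sums in the values of the Gadd45 genes was not tested.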
